A study of Mus musculus with 27 samples.

Results

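The genes described here are those whose symbols name an interleukin receptor subunit (Il followed by a number and r) or a numbered member of the tumour necrosis factor (TNF) receptor or ligand superfamilies (Tnfrsf and Tnfsf). They were chosen by a rule on gene symbols, with earlier results of these data known. The rule also took in Il1rn, the secreted IL-1 receptor antagonist. The genes numbered 56 of the 16038 in the H3K27ac table. Their windows, the stretches of open chromatin that the table gives to the nearest gene, numbered 334 of 70300. ChIP-seq of H3K27ac, an acetyl mark on histone H3 at enhancers and promoters in use, was done on Kupffer cells, which are macrophages that live in the liver. The cells carry the label F4/80-Hi Tim4-Pos and the animals were C57BL/6J, fed either Control diet or NASH diet (NASH stands for non-alcoholic steatohepatitis), with no other allele named for either group. Per the labels, flavopiridol, a transcription inhibitor, was present while livers of both groups were perfused and digested. Each diet had 2 H3K27ac libraries, and site lists of the nuclear receptor LXR, the stress-induced factor ATF3 and the acetyltransferase P300 came from 2 libraries per diet each. The labels give no age and no time on the diet, and do not say whether libraries came from separate animals, so p-values measure only the spread between these libraries.

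TNF superfamily ligands are mostly trimers on the surface of immune cells that bind receptors of the paired superfamily. Receptors with a death domain can start apoptosis or NF-κB signalling, receptors with TRAF-binding tails signal to NF-κB and MAP kinases, and decoy receptors bind ligand without signalling. Most interleukin receptors pair a ligand-specific chain with a shared chain and signal through JAK kinases and STAT factors, whereas the receptors for IL-1 and IL-17 use adaptor proteins that lead to NF-κB. In the liver, Kupffer cells both release and sense these cytokines.

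All values are tags in the windows of a gene, scaled by the authors to 10000000 tags per library and called normalised tags. The libraries held 9468035 and 22615879 tags (control 1 and 2) and 18749728 and 19231109 tags (NASH 1 and 2), so control 1 is the least precise. In each library the members held between 0.413% and 0.444% of the tags in windows. Where no tag was seen, counting error alone still leaves room for 3 tags, equal to 3.17, 1.33, 1.60 and 1.56 normalised tags in the respective libraries. Of the 56 genes, 39 passed the filter on low values and 17 did not. The median gene of the whole table changed by −0.29 on the log2 scale (NASH minus control), so log2 changes below are given relative to that median, while the test, limma with Benjamini-Hochberg adjustment over 11593 genes, was on the change itself. Of the 8 Kupffer cell marker genes, all of them in the table, 5 had less H3K27ac in NASH, and their summed level was 1493 to 1502 in control and 829.9 to 874.7 in NASH. Timd4, which encodes the Tim4 protein used in the sort, measured 256.6, 255.6, 21.31 and 26.0 normalised tags, so the mark at the gene of the sort marker was lower in NASH but not absent. A lower sum can come from fewer cells with the mark or from less of it per cell, and these cannot be told apart in bulk libraries.

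Because 6 of the 8 genes with a called sum or window below, under at least 1 scaling, have a RefSeq promoter entry that overlaps one of their windows, the 250 bases before their annotated starts are shown, 5′ to 3′ on the strand of the gene (RefSeq, build GRCm38.p6, a patch release of the mm10 assembly). Capitals mark letters that matched a searched motif, on either strand. The choice was made after the values were seen.
Tnfsf10, chr3:27316827-27317076, forward strand: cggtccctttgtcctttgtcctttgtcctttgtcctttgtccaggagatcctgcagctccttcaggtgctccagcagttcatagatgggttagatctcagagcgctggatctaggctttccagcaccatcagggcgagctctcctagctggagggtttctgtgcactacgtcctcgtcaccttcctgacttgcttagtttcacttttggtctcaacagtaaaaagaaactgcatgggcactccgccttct
Tnfsf13, chr11:69685555-69685804, reverse strand: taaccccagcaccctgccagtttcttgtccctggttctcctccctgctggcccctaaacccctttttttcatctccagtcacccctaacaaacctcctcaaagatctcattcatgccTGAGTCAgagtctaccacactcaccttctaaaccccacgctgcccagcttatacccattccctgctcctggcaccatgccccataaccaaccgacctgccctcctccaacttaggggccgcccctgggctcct
Tnfrsf1b, chr4:145246871-145247120, reverse strand: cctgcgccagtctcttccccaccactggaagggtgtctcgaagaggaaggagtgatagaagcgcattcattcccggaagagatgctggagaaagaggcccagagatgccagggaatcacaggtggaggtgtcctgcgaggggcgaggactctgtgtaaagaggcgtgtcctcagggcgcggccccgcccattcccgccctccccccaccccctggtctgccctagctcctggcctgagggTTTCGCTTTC
Tnfrsf12a, chr17:23677450-23677699, reverse strand: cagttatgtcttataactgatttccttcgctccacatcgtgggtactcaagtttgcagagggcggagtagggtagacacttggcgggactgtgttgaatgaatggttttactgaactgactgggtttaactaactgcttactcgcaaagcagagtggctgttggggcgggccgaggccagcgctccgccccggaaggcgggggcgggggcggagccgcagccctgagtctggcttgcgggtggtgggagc
Il7r, chr15:9529877-9530126, reverse strand: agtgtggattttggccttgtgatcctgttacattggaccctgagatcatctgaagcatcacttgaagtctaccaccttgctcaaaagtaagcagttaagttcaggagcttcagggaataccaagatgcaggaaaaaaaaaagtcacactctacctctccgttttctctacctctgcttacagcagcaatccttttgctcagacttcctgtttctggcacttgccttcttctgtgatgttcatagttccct
Il21r, chr7:125603179-125603428, forward strand: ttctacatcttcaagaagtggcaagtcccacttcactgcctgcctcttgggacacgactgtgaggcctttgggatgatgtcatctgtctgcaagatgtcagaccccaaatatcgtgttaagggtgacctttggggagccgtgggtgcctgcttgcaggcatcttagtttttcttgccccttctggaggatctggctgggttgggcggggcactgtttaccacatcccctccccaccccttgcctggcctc

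The motifs searched were AP-1 (TGANTCA), the cyclic AMP response element CRE (TGACGTCA), a PU.1 motif (GAGGAAGT), the interferon-stimulated response element ISRE (GAAA and GAAA with 2 free bases between), NF-κB and the LXR repeat DR4. Of the 6 regions shown, Tnfsf13 held an AP-1 match (TGAGTCA) and Tnfrsf1b an ISRE match (TTTCGCTTTC) in the last 10 bases before its start. In the other four none of these letters occurred. No capital stretch belongs to more than 1 motif. The AP-1 match of Tnfsf13 lies between 2 of its windows and not inside one, and the ISRE match of Tnfrsf1b lies inside its promoter window. Among the 56 promoter entries of 47 of the genes, 10 held AP-1 letters (17.9%, against 6.75% of all 32851 entries), 4 held ISRE letters (7.14%, against 2.98%), 4 held NF-κB letters (7.14%, against 3.9%), 1 held the PU.1 motif (1.79%, against 2.44%), and none held CRE or DR4, which occur in 1.55% and 0.067% of all entries. Some genes have more than 1 entry, so these shares are a description and were not tested. Among the AP-1 matches, only those of Il15ra and Tnfsf13b lay inside a window of the gene.

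H3K27ac was spread very unevenly over the 39 tested genes, from a mean sum of 4.28 to 569.5 normalised tags with a median of 33.8. The 8 genes with the largest mean sums were Il10rb, Tnfrsf1b, Tnfrsf14, Tnfsf10, Il4ra, Tnfrsf1a, Il21r and Il17ra, and together they held 62.7% and 66.2% of the members' tags in control and 66.0% and 64.2% in NASH. Per kilobase of window the order differed. Il10rb, the signalling chain shared by the receptors for IL-10, IL-22 and related cytokines, led with 235.6 normalised tags per kb in control and 236.4 in NASH. Next came the ligand Tnfsf13 with 165.8 and 108.3, the receptor Tnfrsf14 with 138.6 and 125.9, and Il6ra, the ligand-binding chain of the IL-6 receptor, with 102.2 and 117.6. The median tested member had 28.75 normalised tags per kb in control and 27.96 in NASH, below the median of all tested genes (51.03 and 40.2). The 17 genes left out by the filter had mean sums of 0 to 4.56 normalised tags. They include Il2rg, the common gamma chain (3.17, 3.98, 6.93 and 4.16 in control 1, control 2, NASH 1 and NASH 2), and Il2ra, as well as the B-cell receptors Tnfrsf13b, Tnfrsf13c and Tnfrsf17 and the ligands Tnfsf13b and Tnfsf14. The others were Il12rb2, Il17rc, Il17rd, Il1rap, Il1rl1, Il22ra1, Il5ra, Il9r, Tnfrsf22 and Il1rapl1, the only one without a tag in any library.

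**Figure D1:**
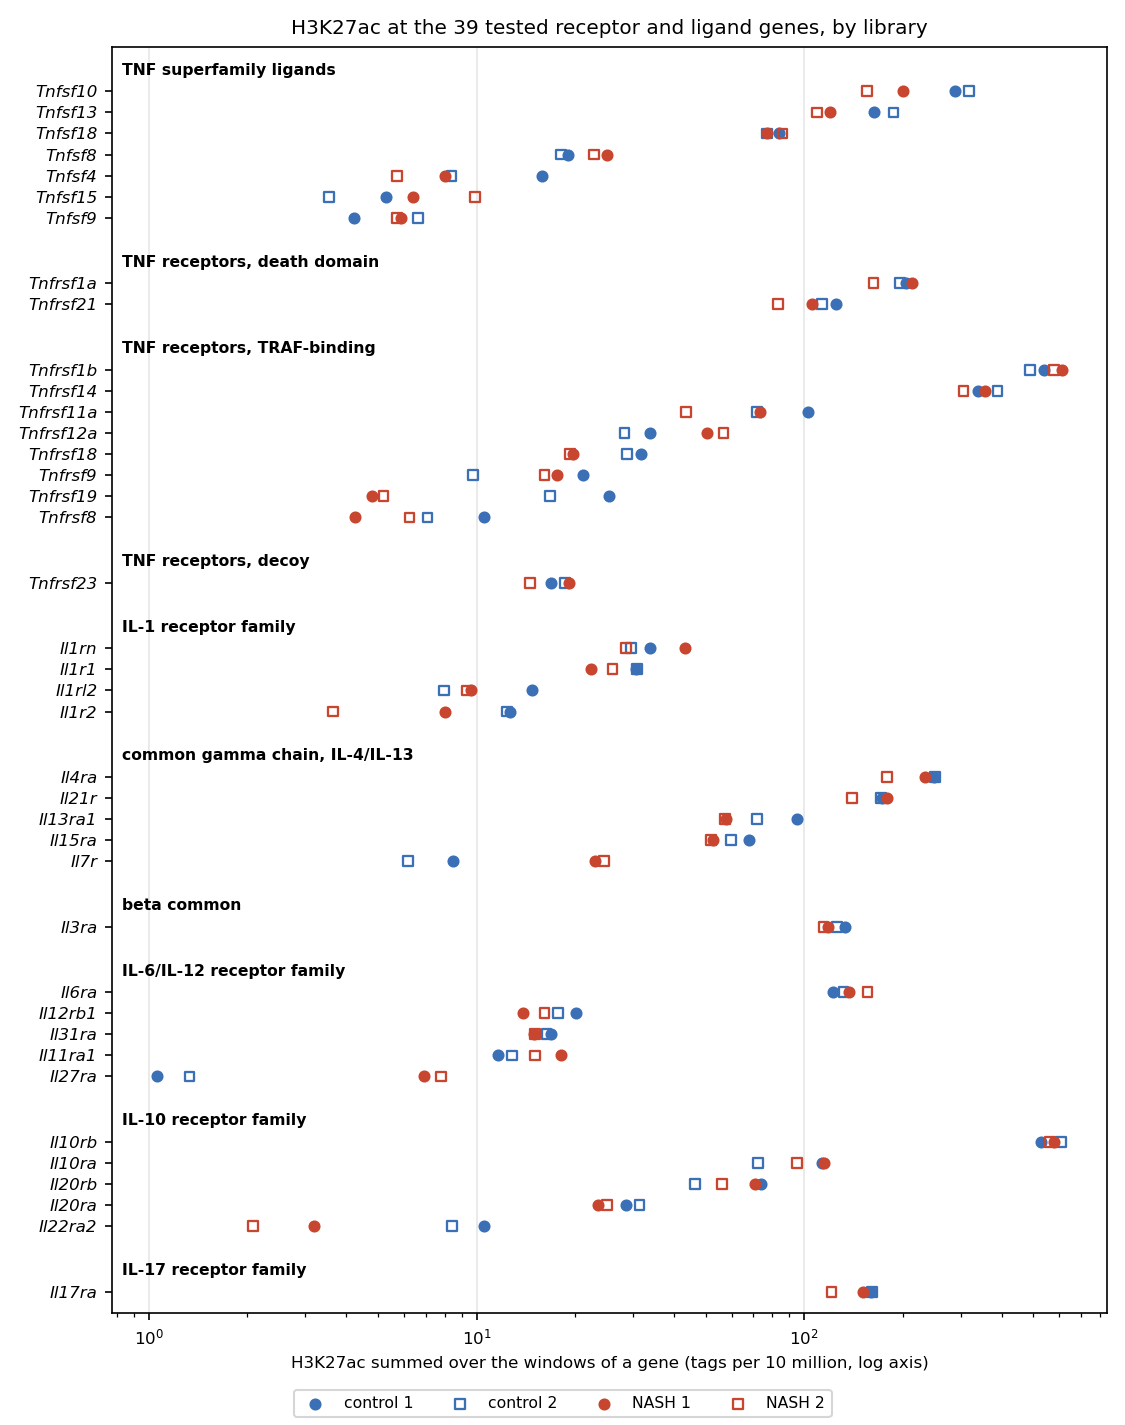
Summed H3K27ac of each tested gene in normalised tags (log axis) for the 4 libraries, with genes in rows grouped by role. Il10rb and Tnfrsf1b lie farthest right, and the diets are most clearly apart for Il27ra, Il7r, Tnfrsf19 and Il22ra2.

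Of the 39 tested genes, 2 had more H3K27ac in NASH (Il7r and Il27ra) and 3 had less (Tnfsf10, Tnfsf13 and Tnfrsf19). Il27ra passed the filter on low values through its NASH libraries alone, so it had to differ, and it supports nothing here. The 5 genes are 12.8% called, close to the 13.9% of all tested genes, of which 2.89% were raised and 11% lowered. With TMM scaling, which sets the bulk of genes to no change, 4 members were raised (Il7r, Il27ra, Tnfrsf12a and Tnfrsf1b) and 2 lowered (Tnfsf10 and Tnfrsf19), against 7.25% and 6.19% of all tested genes. Both NASH libraries lay above both control libraries at 8 of the 39 genes (20.5%, against 12% of all tested genes) and below them at 18 (46.2%, against 46%). Among the 8, Il27ra and Tnfsf15 passed the filter through NASH alone, and among the 18, Il22ra2 passed through control alone. The places of these genes therefore support nothing, and the shares are a description. The median relative change over the 39 was 0.15 on the log2 scale, and 24 of the 39 lay above the median of all genes. Among the 34 genes not called the relative change ranged up to 1.25 in size with a median size of 0.30.

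**Figure D2:**
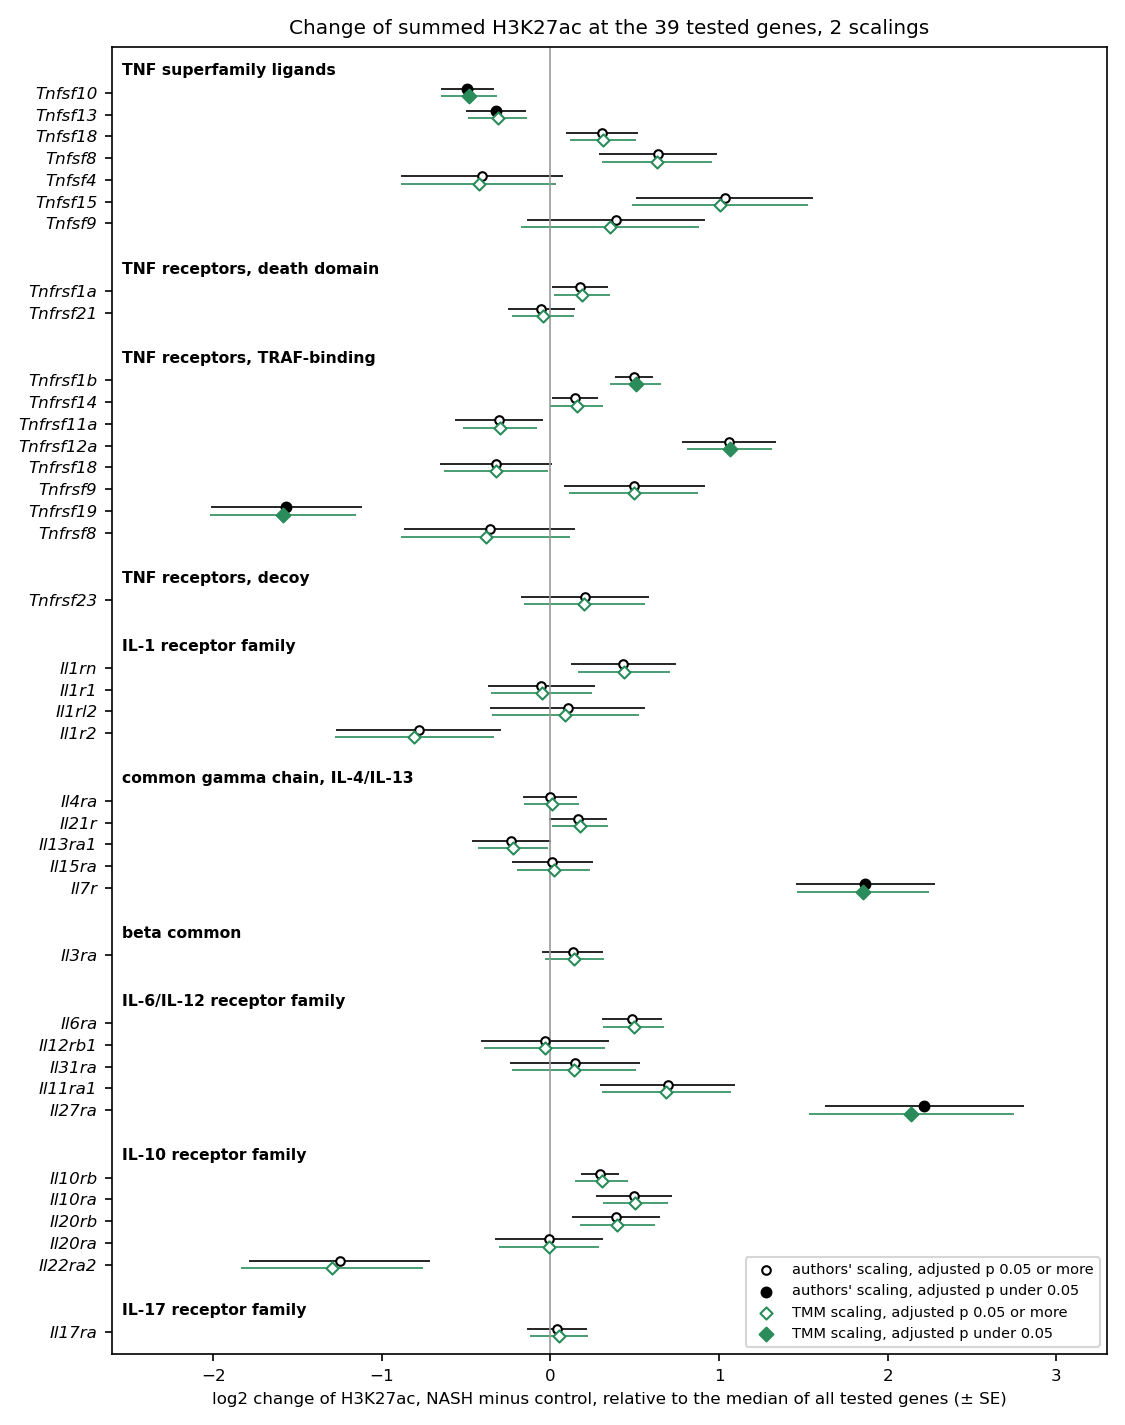
Log2 change (NASH minus control) of each tested gene relative to the median of all tested genes, with SE bars, under the authors' scaling (circles) and TMM (diamonds). Filled symbols mark an adjusted p under 0.05: Tnfsf10, Tnfrsf19, Il7r and Il27ra are filled under both scalings, Tnfsf13 only under the first, and Tnfrsf12a and Tnfrsf1b only under TMM.

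Of the ligands with a Tnfsf symbol, 9 are in the table, 7 were tested, 2 fell and none rose (ligands with other names, such as Tnf, are given with the pathway lists). Tnfsf10 encodes TRAIL, which triggers apoptosis through death receptors, and its 16 windows on chromosome 3 held 289.4 and 318.4 normalised tags in control and 200.5 and 155.5 in NASH. Both NASH libraries were well below both controls. The relative change was −0.49 (SE 0.16, limma adjusted p = 0.00218), and with TMM the adjusted p was 0.0400. Leaving out any 1 library kept the call, with adjusted p-values of 0.000489 to 0.0435, whereas DESeq2 on the recovered tags gave 0.110. Tnfsf13 encodes APRIL, a survival factor for plasma cells, and had 163.7 and 187.1 normalised tags in control and 120.0 and 109.2 in NASH, again without overlap. Its relative change was −0.32 (SE 0.18, limma adjusted p = 0.0252). That call was lost with TMM (0.251), edgeR (0.183) and DESeq2 (0.510), and without control 2 (0.108), NASH 1 (0.0558) or NASH 2 (0.207). All 5 of its windows lie inside overlapping genes (Tnfsf13os and the read-through gene Tnfsfm13), and the 2 of them upstream of its own start held 33.8% to 49.6% of its sum.

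The other five tested ligands did not pass. Tnfsf18, the ligand of the receptor GITR, was nearly the same in all libraries (83.46, 76.94, 76.8 and 85.8 normalised tags, limma adjusted p = 0.966). Tnfsf15, a ligand made by endothelial and myeloid cells, had the largest relative change in the group, 1.03 (SE 0.52, adjusted p = 0.357), from sums of only 5.28, 3.54, 6.40 and 9.88, and passed the filter through NASH alone. Tnfsf8, the ligand of CD30, measured 19.0 and 18.13 in control and 25.06 and 22.88 in NASH, where the diets did not overlap but the test did not call it (adjusted p = 0.530). Tnfsf4, the OX40 ligand, had 15.86, 8.39, 8.02 and 5.72 (adjusted p = 0.353), and Tnfsf9, the 4-1BB ligand, 4.23, 6.63, 5.87 and 5.72 (adjusted p = 0.918).

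Among the TNF receptors with a death domain, both tested genes were uncalled. Tnfrsf1a, the widely expressed TNF receptor, had 204.9 and 196.3 normalised tags in control and 212.8 and 162.8 in NASH, so the diets overlapped (relative change 0.18, SE 0.17, limma adjusted p = 0.706). Tnfrsf21, also called DR6, had 124.6, 113.2, 105.6 and 83.2, with both NASH values lower and a relative change of −0.05 (adjusted p = 0.270). Of the decoys for TRAIL, Tnfrsf23 was tested (16.90, 18.57, 19.2 and 14.56 normalised tags, adjusted p = 0.915) and Tnfrsf22 was too low.

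Of the TRAF-binding receptors 8 of 11 were tested, with none raised and 1 lowered under the authors' scaling, and 2 raised and 1 lowered under TMM. Tnfrsf1b, the second TNF receptor, found on immune cells, had 540.8 and 489.1 normalised tags in control and 610.7 and 579.3 in NASH over 25 windows. The diets did not overlap, and the spread within each was small. Its relative change of 0.49 (SE 0.11) was not called under the authors' scaling (limma adjusted p = 0.224) but was under TMM (0.0215), edgeR (0.0215) and DESeq2 (0.0144). Tnfrsf1a was called under neither scaling, and the difference between these receptors was not tested. Tnfrsf12a, the receptor for TWEAK, had 33.8 and 28.3 in control and 50.67 and 56.68 in NASH, again apart. Its relative change was 1.06 (SE 0.28), with an adjusted p of 0.0665 in limma under the authors' scaling and 0.00311 under TMM. Without control 1 the first of these was 0.0472.

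Tnfrsf19, called TROY and best known from developing nervous and epithelial tissue, fell most of all members. Its 8 windows on chromosome 14 held 25.35 and 16.8 normalised tags in control and 4.8 and 5.2 in NASH. The relative change was −1.57 (SE 0.45, limma adjusted p = 0.00829, 0.00958 under TMM). Without control 1 the adjusted p was 0.0821, without NASH 2 it was 0.0548, and DESeq2 gave 0.0978. Beside this fall, the summed level of the 6 endothelial markers in the table was 94.17 to 138.3 in control and 66.04 to 74.67 in NASH. Cdh5 and Stab2 were lowered, while Pecam1 (62.31, 40.24, 45.87 and 40.04) overlapped between diets and was not called. Kdr (4.22, 3.98, 5.34 and 6.24, higher in NASH), Clec4g and Lyve1 were too low to test. The part of these markers in the Tnfrsf19 result was not tested. Tnfrsf14, or HVEM, had the second largest sum of the group (340.1, 389.1, 355.7 and 306.3), with overlapping diets and an adjusted p of 0.518. Tnfrsf11a, or RANK, had 102.4 and 71.62 in control and 73.07 and 43.68 in NASH, which overlap (adjusted p = 0.138). Tnfrsf18, or GITR, had 31.68 and 28.75 in control and 19.74 and 19.24 in NASH, which do not overlap, yet its adjusted p was 0.232. Tnfrsf9 and Tnfrsf8 had mean sums of 16.14 and 7.04 normalised tags and were not called (adjusted p = 0.772 and 0.415).

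In the family built on the common gamma chain and the IL-4 and IL-13 receptors, 5 of 8 genes were tested and 1 rose. Il7r, the alpha chain of the IL-7 receptor and the TSLP receptor, a hallmark of lymphoid cells that some fetal and inflammatory myeloid cells also carry, had 8.46 and 6.19 normalised tags in control and 22.92 and 24.44 in NASH. Every NASH value was well over each control value. The relative change was 1.87 (SE 0.41, limma adjusted p = 0.0139, 0.000961 under TMM). Without NASH 1 the adjusted p was 0.0999 and without NASH 2 it was 0.193, so the call under the authors' scaling needed both NASH libraries. Limited to windows within 20000 bp of the start it was 0.130. Of 10 marker genes of T and NK cells, 4 are in the table and 3 were tested. Cd3d, a chain of the T-cell receptor complex, was called raised (3.17, 3.54, 12.27 and 21.84). It passed the filter on low values through its NASH libraries alone, so its call is a description. Cd3e, Cd3g, Cd8a, Ncr1, Gzma and Nkg7 have no window. Cd4 (12.67, 2.65, 6.93 and 7.28) and Klrb1c (112.0, 122.0, 143.5 and 121.2) were not called. Klrb1c holds most of the summed level of the list, which was 127.8 to 128.7 in control and 155.0 to 163.7 in NASH. The part of these markers in the Il7r result was not tested.

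The remaining members of this family were not called as sums. Il4ra, the chain through which IL-4 and IL-13 signal, had 249.3, 250.3, 233.6 and 178.9 normalised tags, a relative change of 0.00 (SE 0.16, limma adjusted p = 0.234). Il13ra1, its partner for IL-13, had 95.05 and 71.63 in control and 57.59 and 57.2 in NASH, without overlap, and was not called (adjusted p = 0.144). Il15ra, which presents IL-15 to lymphocytes, measured 67.6, 59.7, 52.8 and 52.0 (adjusted p = 0.473). The IL-21 receptor gene Il21r had 173.2, 171.1, 179.2 and 139.9, which overlap (relative change 0.17, adjusted p = 0.678). Its promoter window, tested by itself, was called raised, as given below.

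In the IL-6 and IL-12 receptor family, 5 of 6 genes were tested and 1 was called raised. Il27ra, the specific chain of the IL-27 receptor, has a single window, 329 bp from its start on chromosome 8 and annotated as a transcript end, with 1.06 and 1.33 normalised tags in control and 6.93 and 7.80 in NASH. These are 4 tags in both controls together and 28 in both NASH libraries, a depth-corrected ratio of 5.91 (exact 95% interval 2.07 to 23.2, counting error only). The relative change of 2.22 (SE 0.59) had a limma adjusted p of 0.0336 (0.0143 under TMM), but the gene passed the filter on low values only through the NASH libraries, where it is high, so the value is a description. The adjusted p was 0.0568 with no filter, 0.146 in DESeq2 and 0.107 among sums within 1000 bp. Leaving out any 1 library ended the call too, with adjusted p-values of 0.0691 without control 2, 0.137 without control 1, 0.255 without NASH 1 and 0.449 without NASH 2. Il6ra had 122.5 and 131.8 in control and 136.5 and 156.0 in NASH, just without overlap, with a relative change of 0.48 (SE 0.18, adjusted p = 0.482, 0.0674 under TMM). Il11ra1, the receptor chain for IL-11, had 11.62, 12.82, 18.13 and 15.08 and was not called (adjusted p = 0.523). Il12rb1, shared by the IL-12 and IL-23 receptors, and Il31ra stayed between 13.87 and 20.08 and between 14.94 and 16.89 in the 4 libraries.

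None of the 5 tested genes of the IL-10 receptor family was called. Il10rb held the largest sum of all members, 529.1 and 608.0 normalised tags in control and 579.2 and 561.6 in NASH, with the diets overlapping (limma adjusted p = 0.973). Il10ra, the ligand-binding chain for IL-10, had 113.0, 72.08, 114.7 and 95.16, where the controls differed more from each other than the diets did (relative change 0.49, SE 0.22, adjusted p = 0.567). Il22ra2, a secreted protein that binds IL-22 and blocks it, had 10.57 and 8.40 in control and 3.2 and 2.08 in NASH. Its relative change of −1.25 (SE 0.54) had a limma adjusted p of 0.0615. The gene passed the filter on low values only through the control libraries, where it is high, so the value is a description. Il20ra and Il20rb, chains of the receptors for IL-19, IL-20 and IL-24, had adjusted p-values of 0.569 and 0.822.

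The IL-1 family had 4 tested genes of 7, none called. Il1rn, the secreted IL-1 receptor antagonist, had 33.81, 29.62, 43.19 and 28.6 normalised tags, and the signalling receptor Il1r1 had 30.63, 30.95, 22.39 and 26.0 (limma adjusted p = 0.785 and 0.505). The decoy receptor Il1r2 had 12.67 and 12.38 in control and 8.0 and 3.64 in NASH, apart but uncalled (relative change −0.78, SE 0.49, adjusted p = 0.154). Il1rl2, a chain of the IL-36 receptor, had an adjusted p of 0.823. Il17ra, the common chain of the IL-17 receptors, had 159.5, 161.4, 150.9 and 121.2 (relative change 0.04, SE 0.18, adjusted p = 0.373). Il3ra, the IL-3 chain that pairs with the common beta chain, had 133.1, 126.0, 118.4 and 114.4 and was not called as a sum (adjusted p = 0.606).

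Single windows were tested one by one over 35947 windows, of which 2% were called raised and 4.59% lowered where the adjusted p was under 0.05 and the log2 change 1 or more in size. Of the 173 tested windows of these genes, 1 was called raised and 1 lowered. The window that rose lies over the promoter of Il21r, 46 bp from its start (chromosome 7, 125603375 to 125603575, mm10), and overlaps the end of the Il21r sequence shown above. It held 9.51 and 10.61 normalised tags in control and 31.47 and 26.52 in NASH, a change of 1.70 relative to the median window (limma adjusted p = 0.0191, 0.00622 under TMM). Without NASH 1 the adjusted p was 0.134 and without NASH 2 it was 0.0858. In the same gene the largest window (chromosome 7, 125601366 to 125601591), upstream of the start, was not called and was lower in both NASH libraries, with 51.75, 61.46, 37.87 and 31.72 (adjusted p = 0.118). Summed over the 16 windows farther than 1000 bp, Il21r had 163.7 and 160.5 in control and 147.7 and 113.4 in NASH.

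The other called window lies in an intron of Tnfrsf19, 49254 bp from its start (chromosome 14, 60988633 to 60988833). It held 6.34 and 9.73 normalised tags in control and 0 in both NASH libraries, which is at least 5-fold lower when each NASH library is set to its floor of 3 tags, counting error of the control not included (limma adjusted p = 0.00816, 0.0108 under TMM). Without control 1, NASH 1 or NASH 2 the adjusted p was 0.131, 0.0736 and 0.113, and without control 2 the window was too low to test. It passed the filter only through the control libraries, so it had to differ, and its call is a description. A neighbouring intron window, 49660 bp from the start, held 7.39, 4.42, 2.13 and 1.04 and was too low to test. Under TMM, 4 windows were called raised and 1 lowered (background 3.31% and 2.51%), the additions being the Il27ra window, which also passed the filter through NASH alone, and 2 intron windows of Tnfrsf1b, 25231 bp (16.9, 16.36, 33.6 and 32.76) and 24705 bp (6.34, 2.21, 10.67 and 18.72) from its start. Neither window overlaps between diets, and their TMM adjusted p-values were 0.0212 and 0.0349.

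**Figure D3:**
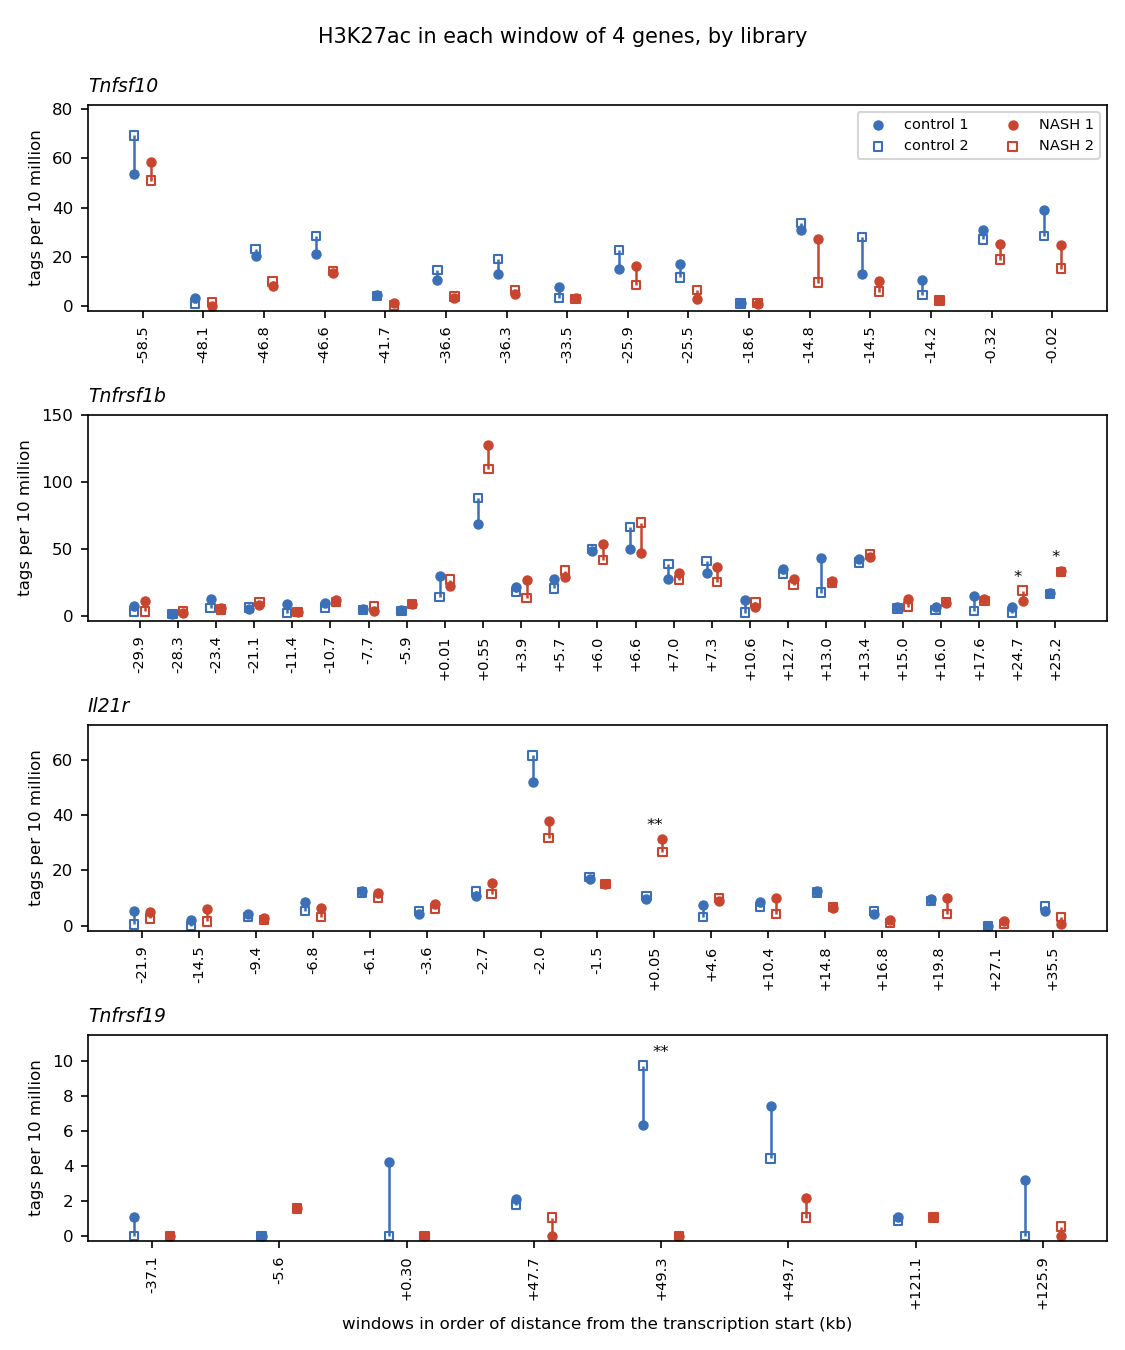
H3K27ac in every window of Tnfsf10, Tnfrsf1b, Il21r and Tnfrsf19, in order of distance from the start (kb), with both libraries of each diet in normalised tags. Double asterisks mark a window called under both scalings and a single asterisk one called under TMM only; the Il21r promoter window stands out against its neighbours, and the lower values of Tnfsf10 run over most of its upstream windows.

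The sums were also split by distance from the start. This split beyond 1000 bp was chosen after the data were seen and used the authors' scaling only. Within 1000 bp of the start, 20 members were tested and 2 called: Il21r rose (relative change 1.73, SE 0.39, limma adjusted p = 0.0293) and Tnfsf13 fell (−0.54, SE 0.22, adjusted p = 0.0240), against 0.937% of all such sums raised and 3.4% lowered. Farther than 1000 bp, 32 were tested, 2 rose (Il7r and Il10ra) and 5 fell (Tnfsf10, Tnfrsf19, Tnfrsf11a, Il3ra and Il22ra2), against 6.47% raised and 19.7% lowered. Of the 11 distal windows of Tnfrsf11a (100.33, 67.64, 67.74 and 40.04 normalised tags), 3 lie inside another gene, Relch, and held 23.23, 20.78, 8.0 and 8.84. Il22ra2 has no nearer window and passed the filter through its control libraries alone, so its sum is the same as above and only the set of genes tested differs. The 14 distal windows of Tnfsf10 held 219.7 and 263.1 in control and 150.9 and 121.7 in NASH (relative change −0.56, SE 0.15, adjusted p = 0.000251). Its 2 promoter windows were also lower in both NASH libraries (69.71, 55.27, 49.6 and 33.8, relative change −0.30, SE 0.29, adjusted p = 0.245). The distal windows of Il10ra held 44.37 and 26.09 in control and 63.46 and 51.48 in NASH (relative change 0.99, adjusted p = 0.0360), and its 2 promoter windows held 68.66, 45.99, 51.2 and 43.68. Il6ra showed opposite signs that no test called, 0.68 near the start and −0.59 beyond (adjusted p = 0.305 and 0.0582). The difference between near and far sums of a gene was not tested.

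The windows are merged from open-chromatin peaks (ATAC-seq) of 2 lists, one for control and one whose name gives 20 weeks. Of the members' windows, 60.8% were on both lists, 25.4% on the control list only and 13.8% on the 20-week list only, against 62.1%, 28.2% and 9.72% of all windows. Il7r stood out in its makeup, with 5 of 7 windows on the 20-week list only and none on the control list only. All 3 windows of Tnfrsf9, the 4-1BB receptor, were also on the 20-week list only, although its sum was not called. At the other end, 6 of the 8 windows of Tnfrsf19 were on the control list only. The tested windows on the 20-week list only had a median relative H3K27ac change of 0.68 (16 windows, 13 of them above the median of all windows), against 0.34 for all such windows. Those on the control list only had −0.43 (39 windows), against −0.18, and those on both lists 0.14 (118 windows), against 0.03.

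Sites of all 3 factors were more common in these windows on the NASH list than on the control list. There is 1 list per factor and diet, so no test between diets can be made, and the NASH lists are longer for all 3 factors (51709 against 44463 sites for LXR, 38828 against 16109 for ATF3, 52628 against 25219 for P300). LXR, a sterol-sensing receptor, had a site in 177 of the 334 windows (53.0%, against 52.7% of all windows) on the control list and in 202 (60.5%, against 57.7%) on the NASH list. ATF3, an early responder to stress, had a site in 75 (22.5%, against 21.4%) and 166 (49.7%, against 42%). P300, which acetylates histones at enhancers, had a site in 107 (32.0%, against 32.3%) and 204 (61.1%, against 58.9%). Windows with sites of all 3 numbered 54 in control (16.2%, against 14.6%) and 133 in NASH (39.8%, against 32.8%). A site on the NASH list only lay in 46 windows for LXR, 98 for ATF3 and 103 for P300, which is 13.8%, 29.3% and 30.8% of the members' windows, against 12.5%, 24.2% and 29.1% of all windows.

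**Figure D4:**
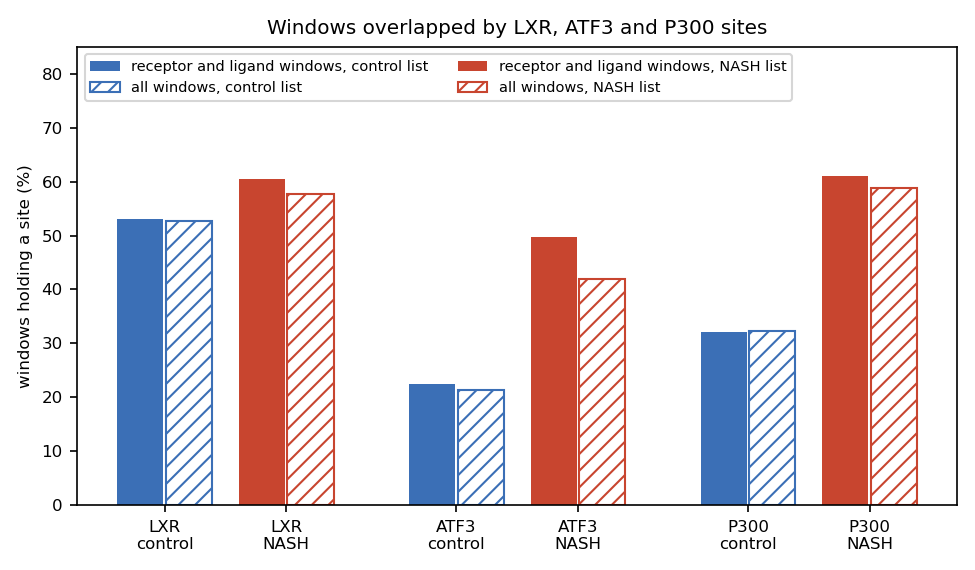
Share of windows (percent) overlapped by a site of LXR, ATF3 or P300 on the control and NASH lists, for the 334 receptor and ligand windows (solid) and all 70300 windows (hatched). The ATF3 and P300 shares are higher on the NASH lists in both sets, and the widest gap between the sets is for ATF3 in NASH (49.7% against 42%).

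Gene by gene, 38 of the 56 members had more ATF3 windows on the NASH list than on the control list, 18 had as many, and none had fewer. For P300 these numbers were 40, 15 and 1, and for LXR 23, 25 and 8. More windows on the NASH list were thus seen at 67.9%, 71.4% and 41.1% of the members, against 46.8%, 55.7% and 27.3% of all 16038 genes. The NASH lists are longer, and a gene with more windows has more chances of a gain: members had a median of 5 windows and all genes 3. ATF3 sites were absent on the control list and present on the NASH list at 13 members (23.2%, against 23.7% of all genes), among them Il3ra (2 of 10 windows), Tnfrsf12a (1 of 5), Tnfrsf23 (1 of 3) and Il7r (4 of 7). P300 did so at 12 (21.4%, against 23%), among them Il3ra, Tnfrsf12a, Tnfrsf23 (2 of 3 windows) and Tnfsf4 (5 of 8). LXR did so at 4 (7.14%, against 6.37%), Il27ra, Il1rap, Tnfrsf13c and Il17rd, and was on the control list only at Il2rg. At the 2 genes with raised sums: Il7r went from 1 to 5 windows with P300, and the single Il27ra window was on the NASH lists of LXR and P300 and on neither control list. The genes with lowered sums did not lose ATF3 windows. Tnfsf10 went from 4 to 7 windows with ATF3 and from 4 to 8 with P300, and Tnfsf13 from 2 to 3 and from 3 to 4. Tnfrsf19 went from 1 to 3 with ATF3 but from 3 to 2 with P300 and from 6 to 5 with LXR. High counts were seen at Tnfrsf1b, where ATF3 went from 7 to 12 of 25 windows and P300 from 10 to 18, and at Tnfsf18, where ATF3 went from 5 to 12 of 14 and LXR from 7 to 12 while the H3K27ac sum was not called. Il21r went from 4 to 12 of 17 windows with P300. No site of any list fell in the windows of 9 members: Tnfrsf9, Tnfrsf13b, Tnfrsf17, Tnfrsf22, Il9r, Il12rb2, Il17rc, Il1rapl1 and Il22ra1.

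H3K27ac and P300 sites were set side by side in the 173 tested windows. The 51 windows with a P300 site on the NASH list only had a median relative change of 0.38, with 37 above the median of all windows, against a median of 0.07 for all such windows in the table. Windows with P300 on both lists had 0.06 (71 windows), and those with neither had 0.08 (47 windows). For ATF3 the NASH-only windows had 0.08 (47 windows), no higher than the 0.15 of windows without ATF3 on either list (77 windows), whereas over all tested windows these classes had 0.12 and −0.06. The promoter window of Il21r is one of the windows with P300 on the NASH list only. Windows of 1 gene are not independent, so these medians are a description.

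**Figure D5:**
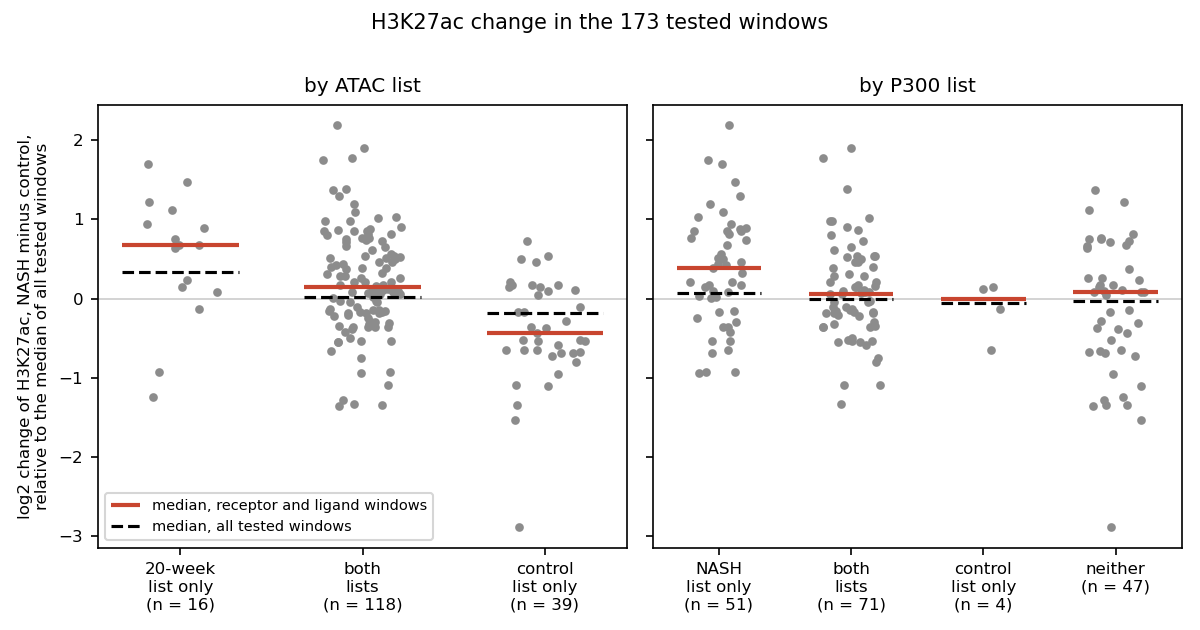
Relative log2 change of H3K27ac in each of the 173 tested windows (grey points), by ATAC list (left) and by P300 list (right). Solid lines give the median of these windows and dashed lines the median of all tested windows in the same class; the 20-week-only and P300 NASH-only classes have medians of 0.68 and 0.38, and the control-only ATAC class −0.43.

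Many of these genes sit next to each other. With a gap of at most 200 kb, 20 of the 56 genes form 11 neighbouring pairs, such as Il4ra and Il21r on chromosome 7 (23.8 kb apart), Tnfsf4 and Tnfsf18 on chromosome 1 (76.5 kb), and Tnfrsf1b and Tnfrsf8 on chromosome 4 (20.3 kb). Il4ra and Il21r had mean sums of 228.0 and 165.8 normalised tags, whereas Tnfrsf1b had 554.9 and Tnfrsf8 7.04. Since windows go to the nearest start, 20 of the 334 have their midpoint inside another named gene and outside their own gene. A pair of Il10rb windows lie inside the interferon receptor gene Ifnar2 and held 25.1% to 32.7% of the Il10rb sum, and 4 windows counted for Tnfrsf1b lie inside Tnfrsf8 and held 3.35% to 4.88% of its sum.

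Genes that work with these receptors were read from 6 lists. In TNF receptor signalling 24 of 24 genes were tested, 2 rose and none fell, beside 2.89% of all tested genes raised and 11% lowered. These were the adaptor Traf1, from 29.57 and 28.74 to 186.7 and 146.6 normalised tags, and Tnfaip3, the feedback inhibitor A20, from 319.0 and 349.3 to 675.7 and 599.0 (relative changes 2.75 and 1.21, limma adjusted p = 7.00e-07 and 3.23e-05). Under TMM Cflar, the inhibitor of death-receptor signalling, was also called. Among the TNF superfamily genes with other names, 7 of 15 were tested and 1 fell, Relt (−0.41, adjusted p = 0.0493), while under TMM Tnf (0.79, adjusted p = 0.0129) and Fasl (1.14, adjusted p = 0.0299) rose and Relt was not called. Over all tested genes 11% were lowered under the authors' scaling and 7.25% raised under TMM. Tnf measured 57.04 and 39.8 in control and 69.87 and 66.04 in NASH.

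In the JAK and STAT list 16 genes were tested, 1 fell and none rose, beside 11% and 2.89% of all tested genes. The gene that fell was Tyk2, a kinase bound to several of these receptors (148.9, 146.8, 80.0 and 63.96 normalised tags, relative change −0.75, SE 0.20, limma adjusted p = 0.00149, 0.00433 under TMM). Of 10 tested cytokine receptors with other names, Csf3r (−0.40, adjusted p = 0.0353) and Ifnar2 (−0.13, adjusted p = 0.0383) fell under the authors' scaling and neither under TMM. The background is again 11% of all tested genes lowered. The Ifnar2 sum leaves out the 2 windows inside that gene counted for Il10rb, which were higher in both NASH libraries (133.07, 157.84, 189.33 and 166.44). None of 6 tested IL-1 and IL-17 receptor adaptors was called. Among 13 tested interleukin genes 3 fell and none rose, beside the same 11% and 2.89% of all tested genes: Il6 (−1.22), Il10 (−0.79) and Il23a (−0.58), with limma adjusted p-values of 0.000467, 0.00109 and 0.0424. Under TMM Il23a was not called (0.130), and Il12a (1.22, adjusted p = 0.00697) and Il16 (0.57, adjusted p = 0.0236) rose, beside 7.25% of all tested genes.

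Markers of other cell types moved as follows, and their part in the results above was not tested. The summed level of the 4 B-cell markers in the table was 106.1 to 106.7 in control and 29.64 to 37.33 in NASH, of which Blk held 89.78, 76.05, 13.86 and 14.56, while Cd79b (13.73, 25.65, 19.73 and 10.4) was not called and Ms4a1 and Ebf1 were too low to test. The summed level was, in control and NASH, for 6 dendritic cell markers 226.0 to 256.6 and 145.6 to 157.8, and for 6 monocyte markers 506.7 to 623.2 and 480.5 to 488.6. The 4 neutrophil markers in the table summed to 1.06 to 3.98 and 3.64 to 4.27, the 3 hepatocyte markers to 22.17 to 23.87 and 27.73 to 30.16, and the 2 stellate cell markers to 68.54 to 76.04 and 60.84 to 64.53.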

How the data were processed

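Kupffer cell H3K27ac (n = 2 libraries per diet) comes as the authors' signal: HOMER tag totals of each mm10 window, normalised to 10000000, per the file headers. Bowtie2, HOMER and DESeq2 are named, without versions or roles, per the submitters' processing notes. Windows were merged ATAC-seq peaks, given to the nearest gene, per the file headers. For LXR, ATF3 and P300 the authors deposited 1 list per diet, made from both libraries, holding an IDR score for each site. In the NASH files for LXR and P300 the header names differ from the file, and the labels give no time on the diet. The 10 inputs and 1 peritoneal library were not used.

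Window values were summed per gene. Multiplying by library totals gave whole tags within 0.02 for 100% of values. The main test was limma 3.58.1 (trend) on log2(sum + 1) after edgeR 4.0.16 filterByExpr on recovered tags (R 4.3.3), called at an adjusted p under 0.05, and for windows also a log2 change of at least 1. Fold changes on this scale understate low genes. A site counted for a window when they shared 1 bp or more (bedtools 2.31.1). The fits were tested on simulated counts with a fixed spread, where changes were planted only in features well covered by tags. There limma recovered 62% of log2 changes of 1 for gene sums and 24% for windows. For log2 changes of 2 it recovered 99% and 94%. A change of 1 in a single window was thus mostly missed. Replicates differed beyond sampling noise, so each library counted once. Gene names matched RefSeq GRCm38.p6 for 56 of 56 members.

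Named members were those called, the 8 with the largest sums, and in each role the largest change and the largest sum, with the other tested members added; up to 4 per factor were named for sites on 1 list only. Members, roles, 6 pathway lists and 9 marker lists were chosen with earlier results of these data known. Alternatives were TMM scaling, edgeR and DESeq2 1.42.0 on recovered tags, other pseudocounts (0.5 and 5), no filter, a replicate block, leaving out each library, sums by distance, and other site rules.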

Additional observations from a re-analysis of the deposited data

How the results depend on the processing

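The counts of called genes are small, and these alternatives move them by more than 1.5 times. Against 2 raised sums, TMM and edgeR with TMM each gave 4, no filter 1, sums within 1000 or 20000 bp of the start 1 each, and leaving out 1 library 0 to 2. Against 3 lowered sums, DESeq2 gave 0, the replicate block 5, sums within 1000 bp 1, sums beyond 1000 bp 5, and leaving out 1 library 1 to 3. At an unadjusted p under 0.05, DESeq2 had 8 members. Against 1 raised window, TMM gave 4, edgeR 5, the replicate block 3, a pseudocount of 5 gave 2, no filter 0, and leaving out 1 library 0 to 3. Against 1 lowered window, a pseudocount of 5 gave 2, the replicate block 7, no filter 0, and leaving out 1 library 0 to 2. Replicate numbers are shared only as numbers (their deviations correlate at 0.0446 over 32841 windows), so the block is no pairing. The counts of 0 had these members or windows at an unadjusted p under 0.05: 52 windows without a filter, 9 members without NASH 1 and 4 without NASH 2 in limma, and 25 and 19 windows; without control 2 it was 29 windows.

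The relative change of some genes, of which Tnfsf13 alone was called as a sum, turned sign in places. Il4ra was 0.0076 with TMM, 0.0022 with a pseudocount of 0.5, 0.00093 with edgeR, 0.0053 with DESeq2 and -0.117 to 0.109 with a library left out. Il15ra was -0.0056 with a pseudocount of 5, -0.0049 with no filter and -0.28 beyond 1000 bp. Il17ra (-0.17) and Il1rn (-0.078) turned within 1000 bp, and Il1rl2 (-0.091) and Tnfrsf11a (0.017) within 20000 bp. Beyond 1000 bp Il21r (-0.061), Il3ra (-0.64, called lowered there), Il6ra (-0.59), Tnfrsf14 (-0.068), Tnfrsf21 (0.13) and Tnfsf13 (0.44) turned. The cause was not tested. With 1 library left out, ranges that crossed 0 were -0.213 to 0.149 for Il12rb1, -0.0587 to 0.0784 for Il15ra, -0.0716 to 0.158 for Il17ra, -0.239 to 0.127 for Il1r1, -0.198 to 0.407 for Il1rl2, -0.181 to 0.166 for Il20ra, -0.0550 to 0.351 for Tnfrsf14 and -0.146 to 0.0356 for Tnfrsf21.

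The counts of windows with a site stayed within 1.5 times under both site rules. With 2 libraries per diet, an exact test of 1 value cannot go below 0.333, and the depth of control 1 limits the low genes most.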
